A study of Homo sapiens with 8 samples.

Results

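The proteasome is the large protease that degrades ubiquitin-tagged proteins, and its genes were followed here in A549, a human lung adenocarcinoma line with features of alveolar epithelium. The genes were chosen by symbol, taking every row whose name begins with PSMA to PSMG and leaving out names that end as pseudogenes do. This gave 44 of 13841 rows. PSMC3IP, a recombination factor whose symbol only shares the prefix, was set apart, which left 43 rows for 42 genes, since PSMA2 stands on 2 rows. The rule used no measured value. PSMA8, PSMB3, PSMB9, PSMB10, PSMB11 and PSMC1 were not analysed here.

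Senescent cells (4 libraries, numbers 1, 3, 4 and 5) were A549 cells that had been cyclically stretched at 15% elongation and 15 cycles per min for 24 h, kept in culture for 6 days and sorted as positive for β-galactosidase, a lysosomal activity that is raised in senescence. Non_senescent cells (4 libraries, numbers 2, 6, 7 and 8) had the same stretch and culture and were sorted as negative. All 8 libraries therefore come from stretched cells of 1 line, with no unstretched cells analysed here. The comparison sets stained against unstained cells after stretch. Separate cultures are not named in the labels, so each p-value reflects spread among these 8 samples, possibly technical spread only.

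The proteasome is built from a barrel, the core particle, whose outer rings of alpha subunits control entry and whose inner rings of beta subunits cut proteins. A cap, or regulatory particle, sits on the barrel. Its base holds ATPases that unfold substrates and receptors that bind ubiquitin, and its lid removes the ubiquitin chain. Other activators can replace the cap, and dedicated chaperones put the parts together. In many cells the transcription factor NFE2L1 raises the subunit genes as a set when proteasome activity is short, and inflammatory signals exchange the cutting beta subunits for immunoproteasome ones. Protein turnover by the proteasome is widely studied in ageing and senescent cells.

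Upstream sequences are shown for 4 of the genes named below. These are the activator genes PSME1, PSME2 and PSME3, with lower mean values in Senescent cells, and the alpha subunit gene PSMA4, with a higher mean. None of them passed the edgeR test after adjustment. Each is the 250 bases before a RefSeq transcript start (of the listed starts, the one of lowest coordinate on GRCh38.p14), in the direction of transcription. Capitals mark the letters TGACNNNGC, the core of the antioxidant response element that NFE2L1 and NFE2L2 bind, or GAAA followed after any 2 bases by GAAA again, the core of an interferon response element, searched on both strands.
PSME1: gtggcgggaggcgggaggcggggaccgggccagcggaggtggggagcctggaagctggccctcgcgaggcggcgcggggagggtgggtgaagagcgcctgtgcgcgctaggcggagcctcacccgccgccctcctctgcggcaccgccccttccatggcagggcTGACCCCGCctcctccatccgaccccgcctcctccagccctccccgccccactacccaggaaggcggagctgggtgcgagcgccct
PSME2: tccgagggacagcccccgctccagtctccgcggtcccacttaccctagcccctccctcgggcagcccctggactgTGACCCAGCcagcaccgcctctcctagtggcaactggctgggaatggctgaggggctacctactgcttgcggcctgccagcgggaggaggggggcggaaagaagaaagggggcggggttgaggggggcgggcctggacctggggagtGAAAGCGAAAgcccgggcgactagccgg
PSME3: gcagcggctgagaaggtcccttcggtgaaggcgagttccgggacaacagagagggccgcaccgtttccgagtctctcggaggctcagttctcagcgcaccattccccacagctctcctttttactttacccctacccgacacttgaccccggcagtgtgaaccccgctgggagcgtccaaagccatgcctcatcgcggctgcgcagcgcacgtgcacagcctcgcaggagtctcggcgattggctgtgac
PSMA4: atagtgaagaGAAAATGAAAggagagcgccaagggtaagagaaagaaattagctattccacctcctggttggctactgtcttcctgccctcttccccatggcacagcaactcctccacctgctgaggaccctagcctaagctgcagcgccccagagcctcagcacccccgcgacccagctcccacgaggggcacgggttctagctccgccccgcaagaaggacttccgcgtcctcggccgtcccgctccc
They lie at chr14:24135944-24136193 on the plus strand (PSME1), chr14:24146611-24146860 on the minus strand (PSME2), chr17:42833147-42833396 on the plus strand (PSME3) and chr15:78540155-78540404 on the plus strand (PSMA4). PSME1 and PSME2 each held 1 match to the antioxidant letters, PSME2 and PSMA4 each held 1 to the interferon letters, and PSME3 held neither, in the windows shown. PSMA4 also held the antioxidant letters, in a window that is not shown. A promoter window was found for 36 of the 42 genes, with 45 windows in all, and PSMB6, PSMB7 and PSMB1 were among the genes without one. The antioxidant letters stood in 11 of these 45 windows (24.4%) and in 10.9% of all 35116 promoter windows, and the interferon letters in 4 (8.89%) and in 3.02% of all. CCAAT, the letters bound by NF-Y, stood in 16 (35.6%) and in 32% of all. Some genes have more than 1 window, and a match of letters is a description only.

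The libraries held 5634961 to 7418432 counts in Senescent and 6121383 to 7990839 in Non_senescent cells. All 10 epithelial and A549 markers were measured, their summed level being 7493 to 9053 CPM (counts scaled to a common library size, with TMM) in Senescent and 9756 to 11538 CPM in Non_senescent cells, which do not overlap. Fibroblast markers (6 of 8 measured) came to 19.4 to 20.5 CPM in Senescent and 18.8 to 22.2 CPM in Non_senescent cells. Immune markers (CD14, CD68 and LYZ only) came to 70.2 to 75.1 CPM in Senescent and 57 to 75.5 CPM in Non_senescent cells. The endothelial marker CDH5 reached at most 1.176 CPM in Senescent and 0.998 CPM in Non_senescent cells. The defining markers PTPRC, CD3E, PECAM1 and VWF were not analysed here. A pair of libraries stood apart. Senescent 1 and Non_senescent 2 had median correlations with the others of 0.938 and 0.924 (log2-CPM), against 0.964 to 0.972 for the rest. Senescent 1 had the most mitochondrially encoded RNA, 109 CPM without scaling, against 9.39 to 23.3 CPM elsewhere. Non_senescent 2 had the highest summed level of 10 cell cycle markers, 2533 CPM, against 807 to 1191 CPM in Senescent and 1130 to 1246 CPM in the other Non_senescent libraries. At an edgeR unadjusted p under 0.05, 6 of these 10 markers were lower in Senescent cells, beside 6.85% of all rows. None was higher, beside 7.52% of all rows. Non_senescent 2 was the highest library for each of these 6, while MKI67 had a log2 fold change of 0.21 (unadjusted p = 0.369).

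Across the proteasome most genes had lower mean values in Senescent cells, with log2 fold changes from -0.89 to 0.66, but no single gene passed the test. Of 42 tested rows 32 had a log2 fold change (Senescent over Non_senescent) below 0, or 76.2%, against 51.9% of all 11351 tested rows, and the median was -0.32 against -0.019 over all rows. After adjustment edgeR's quasi-likelihood test called 0 of the 42 rows at 0.05, as it called 0% of all rows, and the smallest adjusted p among the proteasome rows was 0.309. Before adjustment 9 of the 42 rows were lower at p under 0.05 (21.4%), beside 6.85% of all rows, and 0 higher, beside 7.52% of all rows. DESeq2's Wald test also called 0 of the 42 rows after adjustment (0.458% of all rows; smallest member value 0.155), and so did limma voom (0% of all rows; smallest 0.160). At an unadjusted p under 0.05 DESeq2 had 12 lower rows of 42, beside 7.68% of all rows, and limma voom 9, beside 7.83%, and both had 0 higher, beside 8.02% and 8.34%. Counts by role group and by list below are to be read against the same shares of all rows in edgeR, 51.9% below 0, 6.85% lower and 7.52% higher. In bulk RNA a smaller share of cells that express a gene and less RNA per cell cannot be told apart.

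Every Senescent library lay below every Non_senescent library for 4 of the 42 rows, PSMB6, PSME1, PSME3 and PSMF1, where 4.14% of all rows did so, and above for 0, where 5% of all rows did so. Non_senescent 2 was the highest library for 30 of 42 rows (71.4%), against 29.4% of all tested rows. Senescent 5 was the lowest for 13 rows (31.0%; 9.07% of all), Senescent 1 for 9 (21.4%; 23.9% of all) and Senescent 4 for 8 (19.0%; 10.9% of all). The mean log2-CPM over the 42 rows was 6.71, 6.70, 6.63 and 6.65 in Senescent 1, 3, 4 and 5 and 7.14, 6.83, 6.83 and 6.84 in Non_senescent 2, 6, 7 and 8. The groups do not overlap on this mean (SD 0.038 in Senescent and 0.16 in Non_senescent cells, n = 4 each). That separation depends on the scaling. The TMM factor was 1.07 in Senescent 1, 0.97 in Non_senescent 6 and 0.96 in Non_senescent 7. Library totals in place of TMM raise the mean of Senescent 1 and lower those of Non_senescent 6 and 7, so that the groups overlap. The larger Non_senescent SD comes from Non_senescent 2, as Non_senescent 6, 7 and 8 lie close together. Over all tested rows the same mean was 4.50 ± 0.0069 in Senescent and 4.45 ± 0.035 in Non_senescent cells (SD, n = 4 each).

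**Figure D1:**
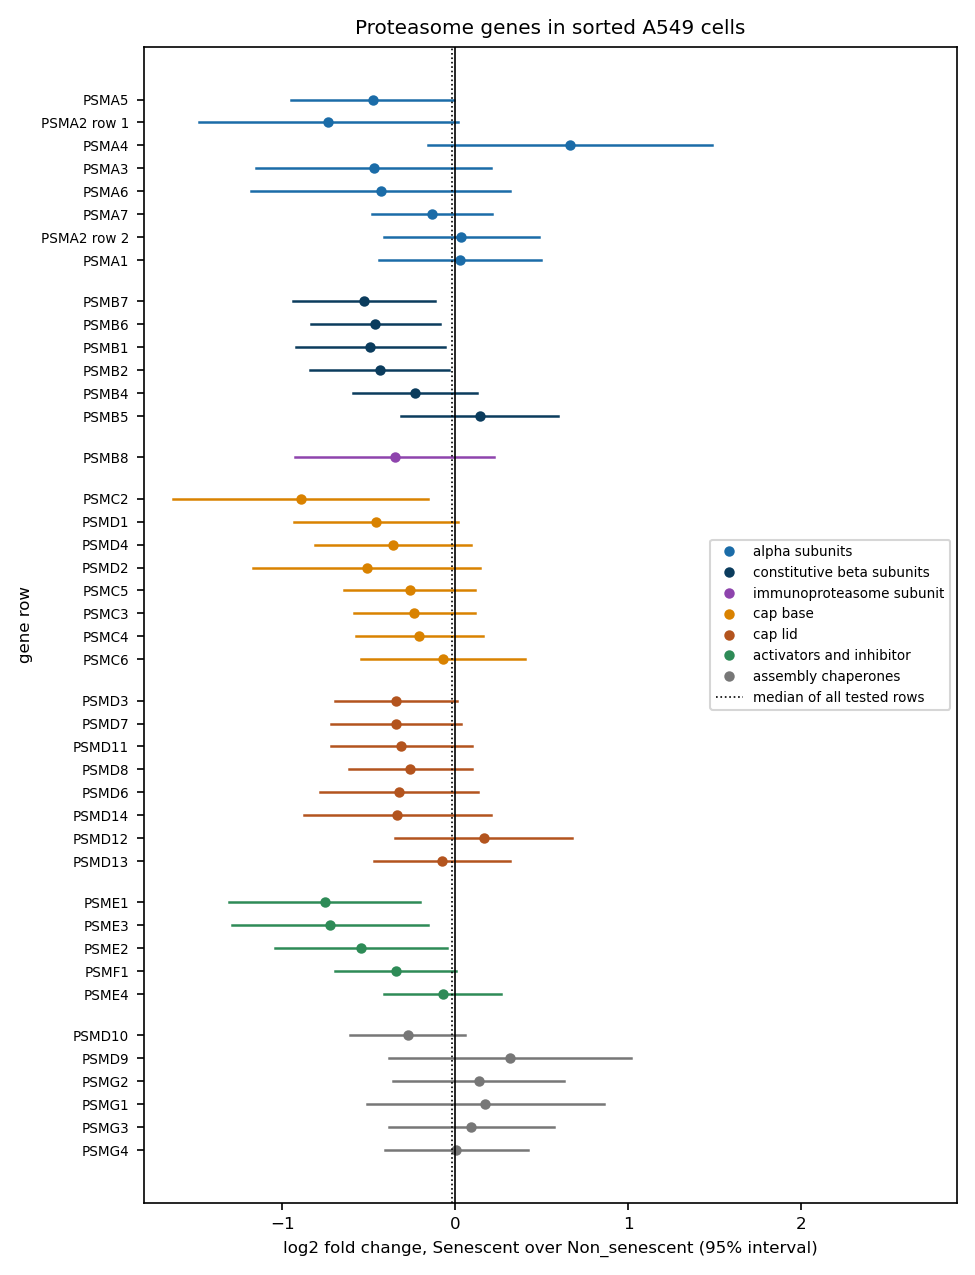
Log2 fold change (x axis, Senescent over Non_senescent) with its 95% interval for each of the 42 tested proteasome rows (y axis), coloured by role; the dotted line is the median of all tested rows. Points of the beta subunits, cap and activators lie mostly left of 0, those of the assembly chaperones mostly right of it, and intervals are wide.

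The core alpha subunits form the gated outer rings of the barrel, and their estimates were the most mixed of the core. Of 8 rows 5 were below 0, with a median of -0.28, and 1 of the 8 (12.5%, beside 6.85% of all rows) was lower at an unadjusted p under 0.05. PSMA5 was at 51.7, 58.1, 35.3 and 53.1 CPM in Senescent 1, 3, 4 and 5 and at 92.2, 60.6, 70.9 and 52.2 CPM in Non_senescent 2, 6, 7 and 8. The ranges overlap through Non_senescent 8, and the log2 fold change was -0.48 ± 0.22 (SE; edgeR unadjusted p = 0.0477, adjusted p = 0.345). It was -0.29 without Non_senescent 2 (unadjusted p = 0.163), and the unadjusted p was under 0.05 in 8 of 18 alternative settings, being lost also without Senescent 1, 4 or 5 or Non_senescent 7.

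PSMA4, an alpha subunit of the same ring, had the largest estimate above 0 of any proteasome row. It stood at 240, 113, 157 and 139 CPM in Senescent 1, 3, 4 and 5, against 31.7, 125, 103 and 149 CPM in Non_senescent 2, 6, 7 and 8. Its highest value was in Senescent 1 and its lowest in Non_senescent 2, with the other 6 libraries interleaved. The log2 fold change of 0.66 ± 0.38 (SE; edgeR unadjusted p = 0.104, adjusted p = 0.410) came to 0.13 without these 2 libraries.

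PSMA2 is represented on 2 rows whose difference the files do not explain. The row with more counts was at 47.6, 108, 82.5 and 105 CPM in Senescent 1, 3, 4 and 5 and at 260, 121, 104 and 85.1 CPM in Non_senescent 2, 6, 7 and 8. Its log2 fold change of -0.73 ± 0.34 (SE; edgeR unadjusted p = 0.0539) was -0.051 without Senescent 1 and Non_senescent 2, which held its lowest and highest values. The other row was at 29.1 ± 4.56 CPM in Senescent and 28.3 ± 5.23 CPM in Non_senescent cells (SD, n = 4 each), and with both rows summed the estimate was -0.57 (unadjusted p = 0.0657). PSMA3 and PSMA6 were at -0.47 and -0.43, PSMA7 at -0.13 and PSMA1 at 0.027, all with intervals that span 0. PSMA3 was at -0.14 without Non_senescent 2.

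The constitutive beta subunits, which include those that cut peptide bonds, had 5 of 6 rows below 0, with a median of -0.45, and 4 of the 6 (66.7%, beside 6.85% of all rows) were lower at an unadjusted p under 0.05, and 1 of the 6 without Non_senescent 2 (3.01% of all rows). PSMB6, the caspase-like cutting subunit, had 307, 295, 285 and 272 CPM in Senescent 1, 3, 4 and 5 and 502, 405, 362 and 328 CPM in Non_senescent 2, 6, 7 and 8. The groups do not overlap, and Senescent values lie within a narrow band (290 ± 14.9 CPM, against 399 ± 75.3 CPM in Non_senescent cells; SD, n = 4 each). The log2 fold change was -0.46 ± 0.17 (SE; edgeR unadjusted p = 0.0188, adjusted p = 0.312). It was -0.32 without Non_senescent 2 (edgeR unadjusted p = 0.0542) and -0.34 without that library and Senescent 1 (unadjusted p = 0.0267), and without Senescent 5 its unadjusted p was 0.0506. PSMB6 lies on chromosome 17 at 4796144 to 4798503 (GRCh38, GENCODE release 29).

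PSMB7, the trypsin-like cutting subunit, was at 194, 302, 244 and 254 CPM in Senescent 1, 3, 4 and 5 and at 442, 358, 344 and 289 CPM in Non_senescent 2, 6, 7 and 8. Only Senescent 3 and Non_senescent 8 cross, and the log2 fold change was -0.53 ± 0.19 (SE; edgeR unadjusted p = 0.0158, adjusted p = 0.312). It was -0.29 without Senescent 1 and Non_senescent 2 (unadjusted p = 0.0664). PSMB5, the chymotrypsin-like cutting subunit and the main target of proteasome inhibitor drugs, did not share this pattern of values. It had 369, 219, 224 and 199 CPM in Senescent 1, 3, 4 and 5 and 231, 265, 217 and 203 CPM in Non_senescent 2, 6, 7 and 8, with Senescent 1 far above the rest. The estimate was 0.14 (95% interval -0.31 to 0.60) and -0.10 without Senescent 1. Whether PSMB5 differs from the other cutting subunits was not tested.

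PSMB1, a structural beta subunit, was at 247, 401, 307 and 343 CPM in Senescent 1, 3, 4 and 5 and at 575, 448, 433 and 368 CPM in Non_senescent 2, 6, 7 and 8, overlapping only through Senescent 3. This gave a log2 fold change of -0.49 ± 0.20 (SE; edgeR unadjusted p = 0.0282), which was -0.34 without Non_senescent 2 (unadjusted p = 0.0821) and -0.23 without that library and Senescent 1 (unadjusted p = 0.145). The unadjusted p was under 0.05 in 12 of 18 alternative settings, and was above it also without Senescent 1 or 4. PSMB2, named after its values were seen, was at -0.44 ± 0.19 (SE; edgeR unadjusted p = 0.0351), at -0.33 without Non_senescent 2 (unadjusted p = 0.0822) and at -0.39 without Senescent 1 and Non_senescent 2 (unadjusted p = 0.0298). Its unadjusted p was under 0.05 in 10 of 18 alternative settings, and above it also without Senescent 3 or 5 or Non_senescent 7 or 8. PSMB4 was at -0.23, and at -0.12 without Senescent 1 and Non_senescent 2, with an interval that spans 0.

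**Figure D2:**
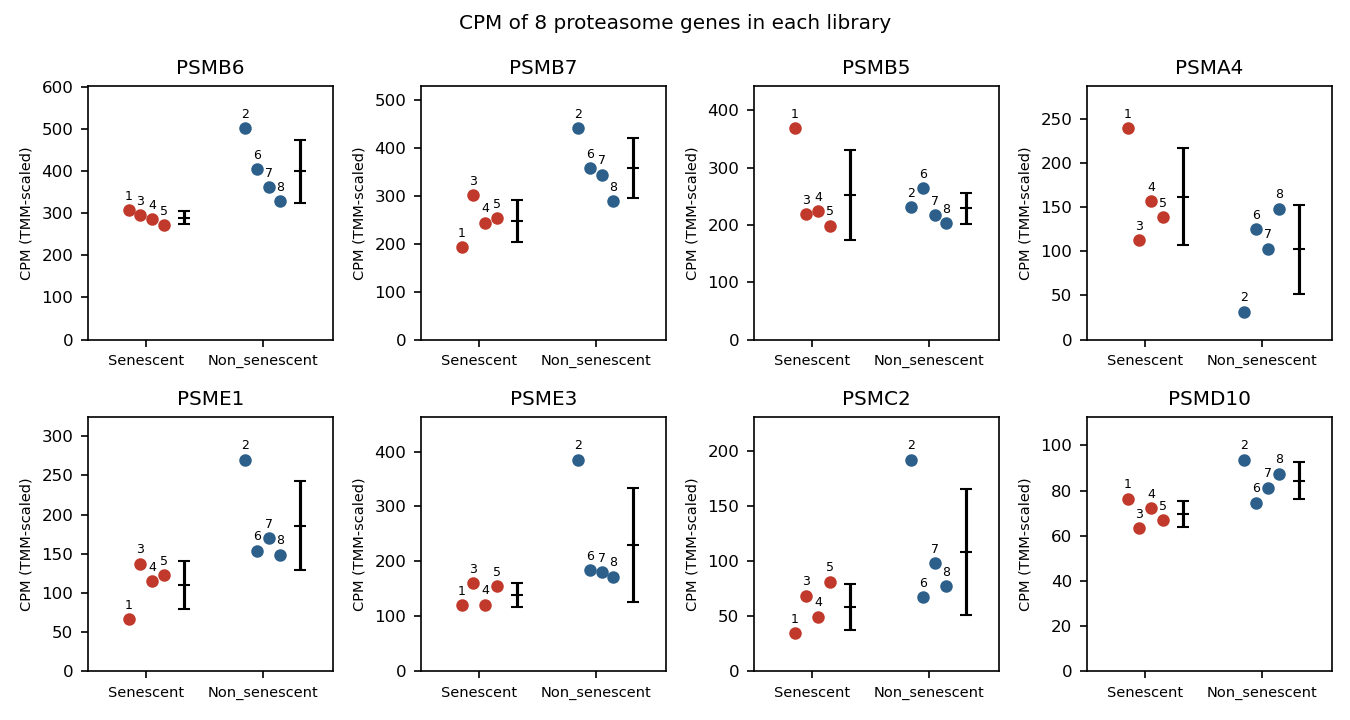
CPM (y axis, TMM-scaled, from 0) of 8 proteasome genes in each library (points, with library numbers), Senescent left of Non_senescent, with the mean and SD of each group as a bar (n = 4). PSMB6, PSME1 and PSME3 show no overlap between groups. Non_senescent 2 is the top library for each gene drawn but PSMB5 and PSMA4, which peak in Senescent 1.

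The immunoproteasome was represented by PSMB8, the inducible subunit that takes the place of PSMB5. It was at 6.67, 12.8, 11.5 and 11 CPM in Senescent 1, 3, 4 and 5 and 16.9, 10.3, 10.5 and 15.8 CPM in Non_senescent 2, 6, 7 and 8, from 40 to 116 counts per library. The groups overlap, with a log2 fold change of -0.35 (95% interval -0.92 to 0.23; edgeR unadjusted p = 0.212), which was -0.041 without Senescent 1 and Non_senescent 2. Levels of PSMB5 and PSMB8 were not compared with each other, since amplicon counts of different genes do not share a scale. The interval of PSMB5 also spans 0 (-0.31 to 0.60), and an exchange of PSMB5 for PSMB8 was not tested. PSMB8 overlaps PSMB8-AS1 and PSMB9 in the annotation, and whether counting used strand is not stated.

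The base of the cap had 8 of 8 rows below 0, beside 51.9% of all rows, with a median of -0.31, which was -0.18 with library totals in place of TMM. Of the 8 rows 1 (12.5%, beside 6.85% of all rows) was lower at an unadjusted p under 0.05. PSMC2, one of the ATPases of the unfolding ring, had the largest estimate below 0 of all proteasome rows. It stood at 34.4, 68.5, 49.2 and 81.3 CPM in Senescent 1, 3, 4 and 5, against 192, 66.9, 98.0 and 76.9 CPM in Non_senescent 2, 6, 7 and 8. Non_senescent 2 was far above the rest and Senescent 1 the lowest, while the remaining libraries overlap. Its log2 fold change of -0.89 ± 0.34 (SE; edgeR unadjusted p = 0.0213, adjusted p = 0.313) was -0.45 without Non_senescent 2 and -0.26 without both (unadjusted p = 0.102 and 0.196), and the unadjusted p was above 0.05 also without Senescent 1 or 4.

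The other ATPases measured, PSMC3, PSMC4, PSMC5 and PSMC6, were between -0.26 and -0.070 with intervals that span 0. PSMD1, a large scaffold subunit, was at 36.9, 32.3, 34.2 and 34.9 CPM in Senescent 1, 3, 4 and 5 and at 68.1, 32, 44.3 and 45.5 CPM in Non_senescent 2, 6, 7 and 8. Senescent libraries were tightly grouped at 34.6 ± 1.89 CPM, and Non_senescent 6 lay just under them (Non_senescent 47.5 ± 15.0 CPM; SD, n = 4 each). PSMD1 had a log2 fold change of -0.46 ± 0.22 (SE; edgeR unadjusted p = 0.0579), which was -0.22 without Non_senescent 2 (unadjusted p = 0.25) and -0.61 without Non_senescent 6 (unadjusted p = 0.0132). PSMD4, a ubiquitin receptor, had 131, 94.2, 81.3 and 107 CPM in Senescent 1, 3, 4 and 5 and 167, 107, 149 and 109 CPM in Non_senescent 2, 6, 7 and 8, with overlap and a log2 fold change of -0.36 ± 0.21 (SE; edgeR unadjusted p = 0.107). PSMD4 was at -0.49 without Senescent 1 (unadjusted p = 0.031) and at -0.22 without Non_senescent 2 (unadjusted p = 0.286). PSMD2, the other large scaffold, was at -0.51 with all libraries and at 0.043 without Senescent 1 and Non_senescent 2.

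The lid, which carries the deubiquitinase PSMD14, had 7 of 8 rows below 0, with a median of -0.32, and 0 of the 8 at an unadjusted p under 0.05, beside 6.85% of all rows lower. Its estimates were the most alike, 6 rows lying between -0.34 and -0.26. PSMD3, a scaffold subunit, was at 198, 224, 199 and 193 CPM in Senescent 1, 3, 4 and 5 and at 292, 288, 224 and 227 CPM in Non_senescent 2, 6, 7 and 8, with groups that meet at 224 CPM (edgeR log2 fold change -0.34 ± 0.16, SE; unadjusted p = 0.0567). PSMD7, the inactive partner of PSMD14, had 152, 179, 130 and 189 CPM in Senescent 1, 3, 4 and 5 and 234, 189, 215 and 187 CPM in Non_senescent 2, 6, 7 and 8 (edgeR log2 fold change -0.34 ± 0.17, SE; unadjusted p = 0.0689), which was -0.23 without Senescent 1 and Non_senescent 2.

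PSMD11, a lid subunit needed for assembly of the complete particle, was at 287, 210, 287 and 192 CPM in Senescent 1, 3, 4 and 5 and at 357, 304, 285 and 265 CPM in Non_senescent 2, 6, 7 and 8. Senescent 1 and 4 reached into the Non_senescent range, and the log2 fold change was -0.31 ± 0.19 (SE; edgeR unadjusted p = 0.121). PSMD14 was at -0.33, at -0.58 without Senescent 1 (unadjusted p = 0.0245) and at -0.14 without Non_senescent 2 (unadjusted p = 0.554). PSMD8 was at 1026 ± 151 CPM in Senescent and 1228 ± 78.8 CPM in Non_senescent cells (SD, n = 4 each; log2 fold change -0.26). PSMD12 was at 0.17 and PSMD13 at -0.077, both with intervals that span 0.

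**Figure D3:**
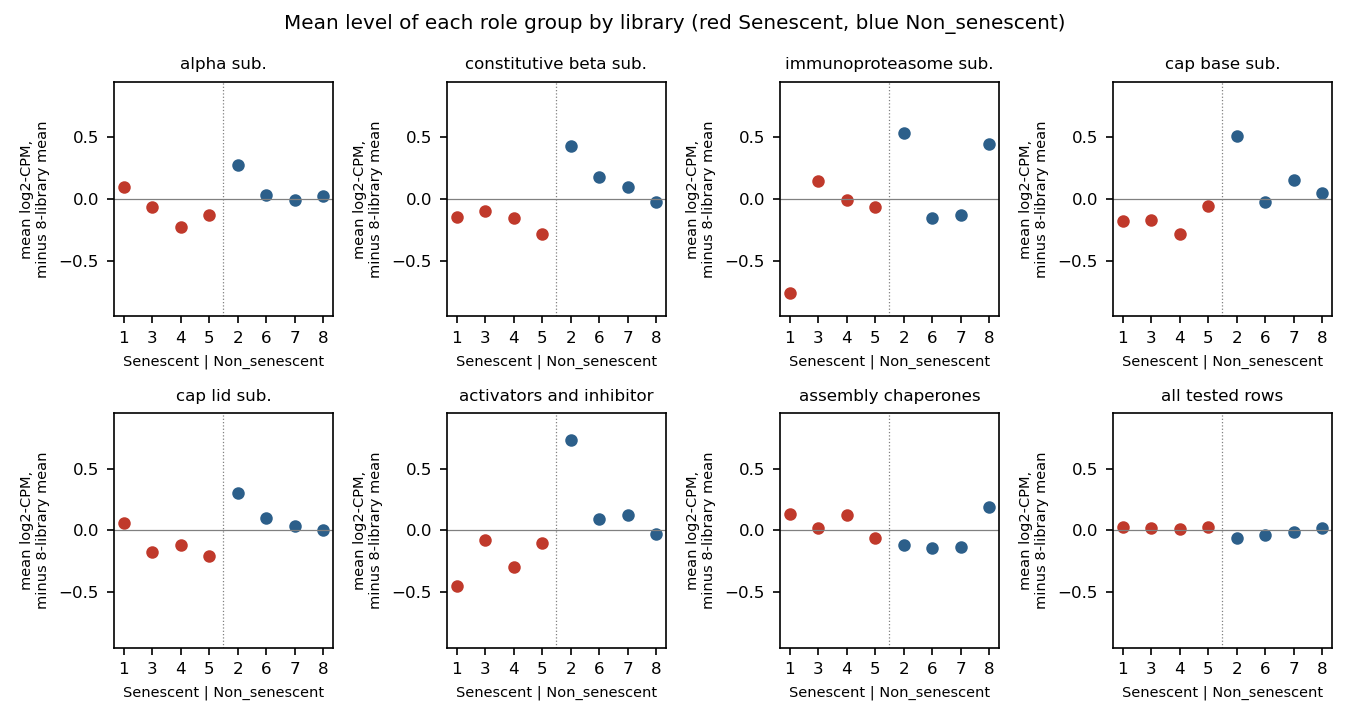
Mean log2-CPM of the tested rows of each role group in each library, minus the mean of the 8 libraries (y axis), with Senescent libraries in red on the left and Non_senescent in blue on the right; the immunoproteasome panel is PSMB8 alone. Non_senescent 2 is the highest library in each panel but those of the assembly chaperones and of all tested rows. The beta subunits, cap base and activators show no overlap between groups. The cap base is parted only narrowly, by a mean log2-CPM of 6.88 in Senescent 5 and 6.92 in Non_senescent 6, which cross with library totals in place of TMM.

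The estimates of the alternative activators and the inhibitor also lay below 0. All 5 rows were below 0, with a median of -0.54, and 3 of the 5 (60%, beside 6.85% of all rows) were lower at an unadjusted p under 0.05. Without Non_senescent 2 the median was -0.28 and 1 of the 5 was lower, beside 3.01% of all rows. PSME1, which with PSME2 forms an interferon-inducible ring that opens the barrel without ATP, was at 65.9, 137, 115 and 122 CPM in Senescent 1, 3, 4 and 5 and at 270, 154, 170 and 149 CPM in Non_senescent 2, 6, 7 and 8. The groups do not overlap. Its log2 fold change was -0.75 ± 0.25 (SE; edgeR unadjusted p = 0.0113, adjusted p = 0.309), and -0.32 without Senescent 1 and Non_senescent 2 (unadjusted p = 0.039). PSME1 was under an unadjusted p of 0.05 in 18 of 18 alternative settings, more than any other member named here, with estimates from -0.88 to -0.32.

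PSME2, its partner in the ring, had 92.6, 101, 83.4 and 122 CPM in Senescent 1, 3, 4 and 5 and 216, 114, 143 and 109 CPM in Non_senescent 2, 6, 7 and 8. Senescent 5 lay within the Non_senescent range, and the log2 fold change of -0.54 ± 0.23 (SE; edgeR unadjusted p = 0.0341) was -0.28 without Non_senescent 2 (unadjusted p = 0.146). Its unadjusted p was also above 0.05 without Senescent 1, 3 or 4 or Non_senescent 7. PSME1 and PSME2 lie near each other on chromosome 14, at 24136158 to 24138967 and 24143362 to 24147570.

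PSME3 encodes the related activator of the nucleus, which promotes ubiquitin-independent degradation of regulators such as p21. It stood at 120, 161, 121 and 155 CPM in Senescent 1, 3, 4 and 5, against 385, 183, 180 and 172 CPM in Non_senescent 2, 6, 7 and 8. The groups do not overlap, but Non_senescent 2 was far above the other libraries. The log2 fold change of -0.73 ± 0.26 (SE; edgeR unadjusted p = 0.0161, adjusted p = 0.312) was -0.34 without that library (unadjusted p = 0.0576) and -0.28 without it and Senescent 1 (unadjusted p = 0.0821). Without Senescent 4 the unadjusted p was 0.0541.

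PSMF1, an inhibitor of the core particle in vitro, was at 235, 245, 247 and 221 CPM in Senescent 1, 3, 4 and 5 and at 355, 313, 290 and 247 CPM in Non_senescent 2, 6, 7 and 8. The groups are parted only narrowly, by Senescent 4 at 246.9 CPM and Non_senescent 8 at 247.3 CPM (edgeR log2 fold change -0.35 ± 0.16, SE; unadjusted p = 0.0535). PSME4, a nuclear activator linked to acetylated histones, had 75.2, 88.3, 79.7 and 86.8 CPM in Senescent 1, 3, 4 and 5 and 101, 87.3, 77.2 and 82.1 CPM in Non_senescent 2, 6, 7 and 8, with overlap and a log2 fold change of -0.073 (95% interval -0.41 to 0.26).

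Assembly chaperones, which are not part of the finished particle, had the only group median above 0. With single libraries left out that median lay between 0.011 (without Non_senescent 6) and 0.21 (without Non_senescent 8). This group holds only chaperones with PSM symbols. POMP and PAAF1, chaperones under other names, were below 0, at -1.06 and -0.26. Of 6 tested rows 1 was below 0, with a median of 0.11, and 0 of the 6 had an unadjusted p under 0.05, beside 6.85% of all rows lower and 7.52% higher. PSMD10, a base chaperone also called gankyrin, was the exception, at 76.4, 63.2, 72.1 and 66.8 CPM in Senescent 1, 3, 4 and 5 and 93.6, 74.6, 81.2 and 87.6 CPM in Non_senescent 2, 6, 7 and 8 (edgeR log2 fold change -0.28 ± 0.15, SE; unadjusted p = 0.097). Only Senescent 1 and Non_senescent 6 cross.

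PSMD9, another base chaperone, had 7.17, 8.89, 5.20 and 6.42 CPM in Senescent 1, 3, 4 and 5 and 3.34, 4.74, 5.09 and 8.98 CPM in Non_senescent 2, 6, 7 and 8 (log2 fold change 0.32, 95% interval -0.38 to 1.02), which was 0.13 without Senescent 1 and Non_senescent 2. PSMG2, which pairs with PSMG1 to guide the alpha ring, was at 56.2, 61.2, 83.0 and 70.1 CPM in Senescent 1, 3, 4 and 5 and at 71.7, 41.8, 49.9 and 83.0 CPM in Non_senescent 2, 6, 7 and 8 (0.13, -0.36 to 0.63). Both overlap between groups. PSMG1, PSMG3 and PSMG4, the other alpha ring chaperones, were at 0.17, 0.093 and 0.0059, with intervals that span 0. PSMD5, the remaining base chaperone with a PSM symbol, had 0 to 6 counts per library and was not tested. Whether the chaperones differ from the subunits was not tested.

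**Figure D4:**
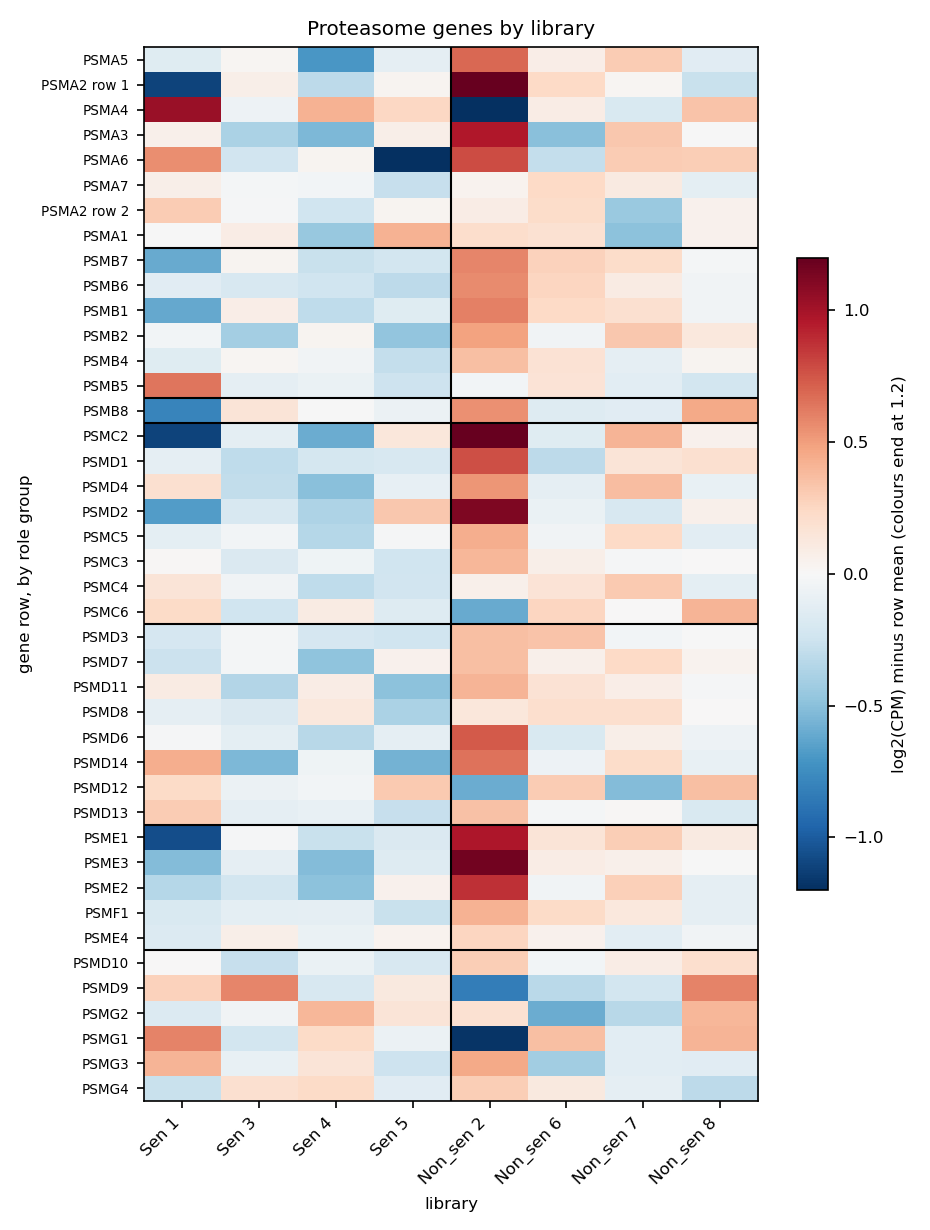
Log2 CPM minus the row mean (colour, ending at 1.2 in either direction) of the 42 tested proteasome rows (y axis, lines between role groups) in the 8 libraries (x axis, Senescent left). The column of Non_senescent 2 is the most red, being the highest for 30 rows, with PSMA4, PSMC6, PSMD12, PSMD9 and PSMG1 as blue exceptions.

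The median over the family stayed below 0 when the libraries that stand apart were left out, and the count at an unadjusted p depended on Non_senescent 2. Without Senescent 1 the median of the 42 rows was -0.32 and 7 were lower at an unadjusted p under 0.05, or 16.7%, beside 5.49% of all rows. Without Non_senescent 2 the median was -0.20 and 2 rows were lower, PSME1 and PSMB7, or 4.76%, beside 3.01% of all rows. With both left out the median was -0.23, 33 of 42 rows were below 0 (47.9% of all rows) and 4 rows were lower (PSME1, PSMB2, PSMB6 and PSMD14), or 9.52%, beside 4.27% of all rows. The summed cell cycle markers, though not each of them, were highest in Non_senescent 2, and the summed epithelial markers were lower in Senescent cells. The part of these markers in the proteasome values was not tested. Without Senescent 4, 4 rows were lower (9.52%), beside 3.54% of all rows, and 0 higher, beside 7.16% of all rows. Without Non_senescent 8, 10 rows were lower (23.8%), beside 7.16% of all rows, and PSMA4 and PSMD9 were higher, beside 10% of all rows.

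**Figure D5:**
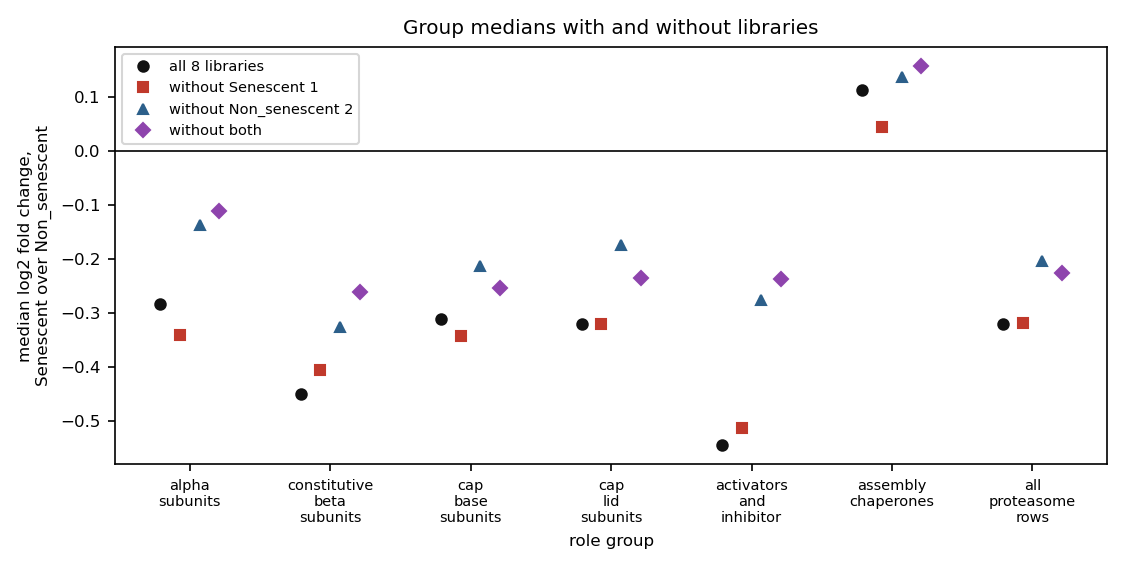
Median log2 fold change (y axis, Senescent over Non_senescent) of each role group and of all proteasome rows with all 8 libraries, without Senescent 1, without Non_senescent 2 and without both. Each group but the assembly chaperones stays below 0, with medians nearer 0 once Non_senescent 2 is left out; PSMB8 alone is not drawn.

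With library totals in place of TMM the median over all tested rows was 0.097 and that of the proteasome rows -0.19, so that the distance between them was -0.28, against -0.30 with TMM. The split of all rows at an unadjusted p under 0.05 was 324 lower and 1162 higher with library totals and 483 lower and 1086 higher with upper quartile scaling, against 777 lower and 854 higher with TMM. Proteasome rows were 5 lower with library totals (2.85% of all rows), 6 with upper quartile scaling (4.26%) and 9 with TMM (6.85%), and 0 were higher in each (10.2%, 9.57% and 7.52% of all rows).

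Genes that work with the proteasome but carry other names were read from 4 lists. Among 13 partner subunits, chaperones and docked enzymes 9 were below 0, with a median of -0.25, and at an unadjusted p under 0.05 there were 2 lower (15.4%, beside 6.85% of all rows) and 1 higher (7.69%, beside 7.52%). POMP, the chaperone that matures the beta rings, was at 5.84, 6.66, 5.20 and 6.55 CPM in Senescent 1, 3, 4 and 5 and at 18.5, 7.79, 13.9 and 10.4 CPM in Non_senescent 2, 6, 7 and 8, with no overlap. Its log2 fold change was -1.06 ± 0.28 (SE; edgeR unadjusted p = 0.00258, adjusted p = 0.309), from -1.23 to -0.78 over 18 alternative settings.

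UCHL5, a deubiquitinase docked on the cap, went the other way in its values, with 19.0, 15.7, 15.5 and 17.2 CPM in Senescent 1, 3, 4 and 5 and 8.58, 14, 6.95 and 8.98 CPM in Non_senescent 2, 6, 7 and 8. The groups do not overlap, and the log2 fold change was 0.81 ± 0.24 (SE; edgeR unadjusted p = 0.00575, adjusted p = 0.309). POMP and UCHL5 were under an unadjusted p of 0.05 in 18 of 18 alternative settings. SHFM1, the small lid subunit also called SEM1, had 460, 378, 360 and 336 CPM in Senescent 1, 3, 4 and 5 and 582, 486, 536 and 460 CPM in Non_senescent 2, 6, 7 and 8, groups that meet at 460 CPM without overlap (edgeR log2 fold change -0.43 ± 0.17, SE; unadjusted p = 0.0235). Its unadjusted p was above 0.05 without Senescent 3, 4 or 5 or Non_senescent 7. ADRM1, the receptor that holds UCHL5, had 272, 206, 199 and 176 CPM in Senescent 1, 3, 4 and 5 and 208, 239, 262 and 194 CPM in Non_senescent 2, 6, 7 and 8, with overlap and a log2 fold change of -0.080.

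Among 14 tested genes that supply ubiquitin or carry tagged proteins, 11 were below 0, with a median of -0.30, and 1 (7.14%, near the 6.85% of all rows) was lower at an unadjusted p under 0.05. This was RAD23B, a shuttle that carries ubiquitin chains to the cap, at 145, 153, 146 and 154 CPM in Senescent 1, 3, 4 and 5 and 289, 212, 210 and 168 CPM in Non_senescent 2, 6, 7 and 8, with no overlap (edgeR log2 fold change -0.55 ± 0.18, SE; unadjusted p = 0.00975, adjusted p = 0.309). It was -0.36 without Senescent 1 and Non_senescent 2 (unadjusted p = 0.0249). UBQLN2, another shuttle, had 111, 100, 128 and 86.0 CPM in Senescent 1, 3, 4 and 5 and 119, 124, 153 and 158 CPM in Non_senescent 2, 6, 7 and 8, with overlap (edgeR log2 fold change -0.38 ± 0.18, SE; unadjusted p = 0.0552), which was -0.43 without Non_senescent 2 (unadjusted p = 0.0275). UFD1L, a cofactor of the unfoldase VCP, had 41.4, 40.5, 42.0 and 43.4 CPM in Senescent 1, 3, 4 and 5 and 102, 46.4, 52.6 and 41.1 CPM in Non_senescent 2, 6, 7 and 8. Its estimate of -0.53 was -0.14 without Non_senescent 2.

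Of 9 tested transcription regulators, 1 was lower and 1 higher at an unadjusted p under 0.05 (11.1% each, beside 6.85% of all rows lower and 7.52% higher). NFE2L1, the regulator of subunit genes, was at 53.1, 90.4, 87.9 and 84.7 CPM in Senescent 1, 3, 4 and 5 and at 67.2, 102, 90.6 and 86.7 CPM in Non_senescent 2, 6, 7 and 8 (log2 fold change -0.13, 95% interval -0.57 to 0.31), and its estimate was 0.018 without Senescent 1. NFE2L2, the antioxidant regulator, had 56.9, 54.6, 77.0 and 55.1 CPM in Senescent 1, 3, 4 and 5 and 72.6, 75.0, 94.0 and 106 CPM in Non_senescent 2, 6, 7 and 8, overlapping through Senescent 4 (edgeR log2 fold change -0.51 ± 0.19, SE; unadjusted p = 0.0176). Its unadjusted p was above 0.05 without Senescent 3 or 5 or Non_senescent 8.

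NLRC5, an activator of MHC class I genes, had 15.7, 16.6, 11.1 and 11.9 CPM in Senescent 1, 3, 4 and 5 and 7.27, 11.3, 9.11 and 10.6 CPM in Non_senescent 2, 6, 7 and 8, a log2 fold change of 0.53 ± 0.23 (SE; edgeR unadjusted p = 0.0425), which was 0.37 without Senescent 1 and Non_senescent 2 (unadjusted p = 0.118). Leaving out Senescent 1 or 3 or Non_senescent 2 or 7 also took its unadjusted p above 0.05. IRF1, an interferon regulator, had 55.1, 44.0, 34.8 and 47.1 CPM in Senescent 1, 3, 4 and 5 and 30.1, 34.2, 39.1 and 36.2 CPM in Non_senescent 2, 6, 7 and 8 (0.37 ± 0.19, SE; edgeR unadjusted p = 0.069), and its estimate was 0.22 without Senescent 1 and Non_senescent 2. The groups overlap for both genes.

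The antigen presentation genes, which use peptides cut by the proteasome, had 9 of 11 tested rows above 0, with a median of 0.21, 1 higher and 1 lower at an unadjusted p under 0.05 (9.09% each, beside 7.52% of all rows higher and 6.85% lower). Several of these rows repeat a symbol, some with equal values, so they are not separate genes. The HLA-C row of smallest p, for a heavy chain of MHC class I, had 2.84, 4.18, 3.86 and 4.85 CPM in Senescent 1, 3, 4 and 5 and 1.89, 1.18, 2.78 and 2.14 CPM in Non_senescent 2, 6, 7 and 8 (edgeR log2 fold change 0.97 ± 0.34, SE; unadjusted p = 0.0132), and with the rows of the symbol summed the estimate was 0.37 (unadjusted p = 0.0866). The groups do not overlap, with 17 to 37 counts in Senescent and 7 to 18 counts in Non_senescent libraries. The HLA-C row with the most counts had 40.0, 47.3, 38.5 and 42.7 CPM in Senescent 1, 3, 4 and 5 and 22.7, 32.5, 37.8 and 39.8 CPM in Non_senescent 2, 6, 7 and 8, with overlap through Senescent 4 and Non_senescent 8 (edgeR log2 fold change 0.34 ± 0.20, SE; unadjusted p = 0.113), which was 0.21 without Non_senescent 2. HLA genes vary in sequence between cells, and the amplicons were not checked against those of A549. B2M, the light chain of MHC class I, had 216, 292, 268 and 322 CPM in Senescent 1, 3, 4 and 5 and 493, 316, 332 and 340 CPM in Non_senescent 2, 6, 7 and 8. It averaged 274 ± 44.8 CPM in Senescent and 370 ± 82.1 CPM in Non_senescent cells (SD, n = 4 each; edgeR log2 fold change -0.43, unadjusted p = 0.0461). The estimate was -0.25 without Non_senescent 2 (unadjusted p = 0.165) and -0.15 without that library and Senescent 1 (unadjusted p = 0.311), and the unadjusted p was under 0.05 in 7 of 18 alternative settings.

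Several estimates carry a limit of counting. Of the 42 proteasome genes 10 have a named pseudogene in the annotation, PSMA2, PSMA3, PSMA6, PSMB7 and PSME2 among them, so reads may be divided between copies. PSMC1P1, by its symbol a pseudogene of the ATPase gene PSMC1 and outside the rule, had 963 to 1288 counts in Senescent and 1152 to 1704 counts in Non_senescent libraries (log2 fold change -0.46). Of the same 42 genes 24 overlap another annotated gene, PSME3 (BECN1), PSME1 (EMC9) and PSMC2 (DNAJC2) among them. PSMC3IP, the row set apart, was at 1.96 ± 2.31 CPM in Senescent and 2.64 ± 1.98 CPM in Non_senescent cells (SD, n = 4 each; log2 fold change -0.50, 95% interval -2.06 to 1.07).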

How the data were processed

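Total RNA was extracted with Trizol and turned into amplicon libraries with an Ion AmpliSeq kit for human transcripts, per the labels' protocols. Such a kit reads a short stretch of each gene, so counts do not scale with transcript length and levels were not compared between genes. The submitters' processing notes name fastp 0.20.1, Salmon 1.9 and GRCh38. No source used here gives the transcript annotation, the strand setting or the row filter. The authors deposited estimated counts per gene, already whole numbers, without scaling to a common depth. Library totals were 5634961 to 7990839 counts, and every pair of libraries differed by more than sampling noise (lowest chi-square per degree of freedom 8.44). Amplicon reads carry no molecular identifiers, and intervals cover the spread between libraries only.

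Rows were kept with filterByExpr (minimum count 10, minimum total 15), leaving 11351 of 13841, and tested with edgeR 4.0.16 (TMM, robust quasi-likelihood test, R 4.3.3), with Benjamini-Hochberg adjustment over all tested rows and a threshold of 0.05. Mean log2-CPM values used a prior count of 2. Unadjusted p-values were used only as a description. Rows of 1 symbol were kept apart. The members and lists were chosen with earlier results of these data known. The rule for genes named with library values took the cutting and immunoproteasome subunits, the activators, and the 3 tested rows of smallest p in each role group and partner list, besides NFE2L1, POMP and ADRM1. An item of the antigen presentation list is not reported here and was left out of its counts. Alternatives were other scalings, filters and tools (DESeq2 1.42.0, limma 3.58.1 voom with library weights), robust estimation off, rows summed by symbol, each library left out, and Senescent 1 and Non_senescent 2 both left out. The method was tested on simulated counts with planted changes of 1 or 2 log2 units, larger than the estimates of the proteasome rows. It was not tested on changes of their size. Positions are from GENCODE release 29, in which 43 of 43 symbols were found, and upstream sequences from RefSeq.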

Additional observations from a re-analysis of the deposited data

Results flagged for a closer look

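In groups of 4 libraries, a value was looked at again where its gap to the nearest other value, divided by the range of the group, exceeded Dixon's critical value for 4 libraries. This held for 8 of 86 groups examined, and chance flags about 1 in 20 groups.

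Among Senescent libraries, Senescent 1 was far above the others for PSMB5 (369 CPM, next 224) and far below them for NFE2L1 (53.1 CPM, next 84.7). Senescent 3 was above the others for PSMD3 (224 CPM, next 199) and Senescent 4 for NFE2L2 (77.0 CPM, next 56.9). Among Non_senescent libraries, Non_senescent 2 was far above the others for PSME3 (385 CPM, next 183), for B2M (493 CPM, next 340) and for the mean log2-CPM of the alpha subunits (6.73, next 6.49). Non_senescent 8 was above the others for the mean log2-CPM of the assembly chaperones (5.29, next 4.99).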

How the results depend on the processing

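No paired analysis was possible because each library number was used once, so the groups share no number. Under each alternative 0 proteasome rows passed an adjusted p of 0.05. The count at an unadjusted p under 0.05, 9 with all libraries, was 5 with library totals, 4 without Senescent 1 and Non_senescent 2, and 2 to 12 with each library left out in turn. It was 2 without Non_senescent 2, 4 without Senescent 4, and 12 without Non_senescent 8, where 10 rows were lower (7.16% of all rows) and PSMA4 and PSMD9 higher (10%). Group medians kept their sign in every alternative. The median of the alpha subunits, -0.28, was -0.43 with rows summed by symbol, -0.11 without Senescent 1 and Non_senescent 2 and -0.34 to -0.14 with single libraries left out. The beta subunits, at -0.45, were at -0.29 with limma voom, -0.26 without the same pair and -0.48 to -0.33 with single libraries left out. The cap base, at -0.31, was at -0.18 with library totals. The cap lid, at -0.32, was at -0.19 with library totals and -0.35 to -0.17 with single libraries left out. The activators and inhibitor, at -0.54, were at -0.24 without the pair and -0.66 to -0.28 with single libraries left out. The assembly chaperones, at 0.11, were at 0.011 to 0.21 with single libraries left out. The cause of these shifts was not tested.

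Of 664 single-gene values under alternatives 551 kept direction and side of an unadjusted p of 0.05, 72 lost it, 30 gained it and 11 turned direction, all 11 in genes whose interval spans 0. PSMB5 (0.14) was at -0.031 with limma voom and -0.075 without the pair, with -0.10 to 0.24 over single libraries left out. PSME4 (-0.073) was at 0.050 with library totals, 0.052 with limma voom and 0.067 without the pair, with -0.13 to 0.021 over single libraries. PSMG2 ranged from -0.015 to 0.34 and NFE2L1 from -0.22 to 0.018 over single libraries. ADRM1 (-0.080) was at 0.040 with library totals, and from -0.22 to 0.00016 over single libraries. With 4 libraries a group, the median half-width of a 95% interval was 0.54 on the log2 scale.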
